A study of Mus musculus with 6 samples.

Results

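The SLAM family of lymphocyte receptors was examined together with its adaptor SAP and the lipid-presenting molecule CD1d. The 8 genes, Slamf1, Slamf6, Slamf7, Ly9, Cd84, Cd48, Sh2d1a and Cd1d1, were picked by symbol and were found among 32377 gene identifiers of a mouse count table, and all 8 passed the filter on low counts that left 17022 genes to test. The table holds bulk RNA-seq of 6 libraries in 2 groups of 3, which the labels call TNFR2-deficient Treg and TNFR2 positive Treg (regulatory T cells). TNFR2 is a receptor for tumour necrosis factor. The study asked which transcripts differ between the groups. The labels name no strain, age, treatment, tissue or sort and do not say how TNFR2 was lost. They also do not say whether libraries came from separate animals, so each p-value is measured against a spread that may be technical.

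SLAM receptors sit on the surface of blood cells, and most of them bind a copy of themselves on the neighbouring cell. Their cytoplasmic tails carry tyrosine motifs that, once phosphorylated, recruit SAP, a small SH2-domain adaptor that brings in the kinase Fyn. Without SAP, natural killer T (NKT) cells fail to develop and follicular helper T cells give poor help to B cells. In the thymus, NKT cells are selected on neighbouring double-positive thymocytes, which present lipids on CD1d and touch the selected cell through SLAM receptors.

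Total counts ran from 19296082 to 24038118 per library, so that a floor of 3 counts was worth 0.125 to 0.155 CPM (a gene's counts scaled to a common library size; the floor covers counting error only). Tnfrsf1b, which encodes TNFR2, was at 7.32 to 8.30 CPM in the TNFR2-deficient and 80.2 to 84.6 CPM in the TNFR2-positive libraries. The markers did not show a pure Treg population in either group. Foxp3, the defining Treg factor, was at 1.34 to 1.53 CPM against 73.0 to 76.9 CPM, and 13 of 14 Treg markers were called lower. B cell markers were high in both groups, with 10 of them summing to 8434 to 8786 CPM against 7440 to 7521 CPM, and all 7 erythroid markers were called higher, summing to 18067 to 20615 CPM against 4236 to 7010 CPM. Among the TNFR2-positive libraries, library 1 stood apart (chi-square per gene 15.5 and 20.8 against libraries 2 and 3, which gave 2.56 between them). In such bulk samples, fewer cells of a type and less RNA per cell cannot be told apart.

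Across all 17022 genes, edgeR's quasi-likelihood test put 69.3% past an adjusted p of 0.05, of which 35.1% of all genes were higher in TNFR2-deficient libraries and 34.2% were lower. With a fold of at least 2 as well, it called 8.01% higher and 13.5% lower, together 21.5%. The counts called in each marker list, above and below, are to be read beside the 35.1% and 34.2%. Of the 8 genes 4 rose (Sh2d1a, Cd1d1, Slamf1 and Cd48), 2 fell (Slamf7 and Ly9) and 2 (Slamf6 and Cd84) were not called. Of those called, Sh2d1a and Slamf7 differed by at least 2-fold. The share called was thus close to that of all genes, and the median log2 fold change (log2FC, TNFR2-deficient over TNFR2-positive) was 0.10 over the 8 genes and 0.04 over all genes tested. For 7 of the 8 the levels of the groups did not overlap, as was true of 74.5% of all genes tested. The genes differ from one another far more than the median shows, with log2FC from -1.12 to 2.69.

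**Figure D1:**
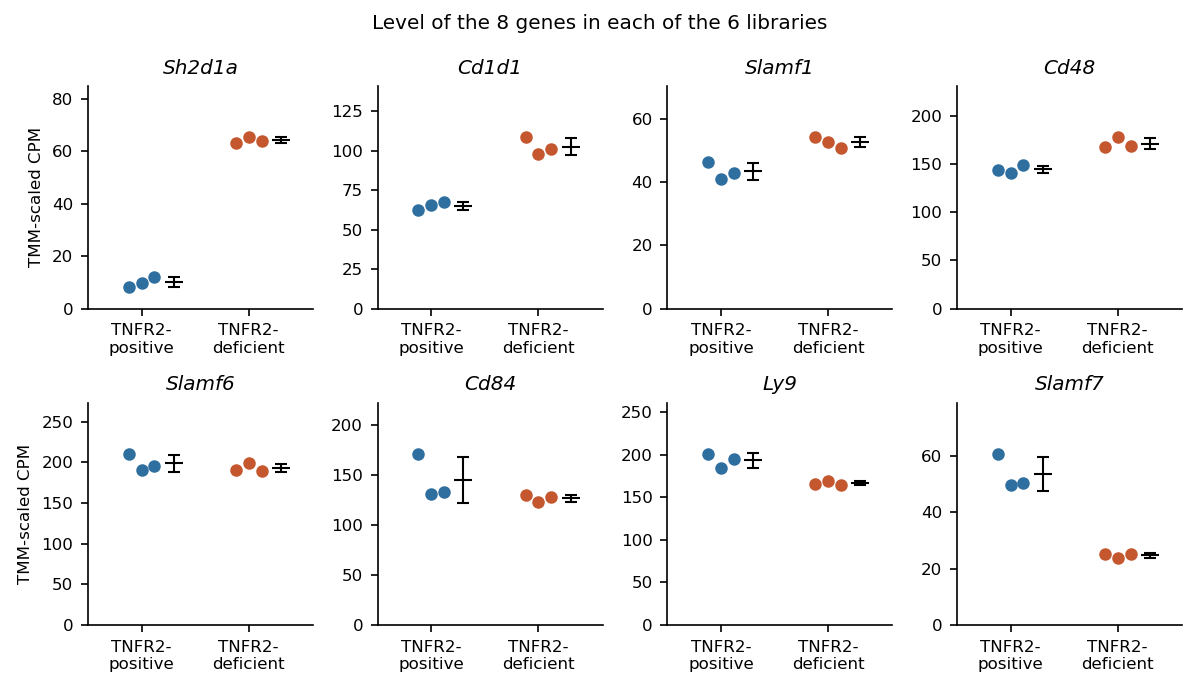
Level of each gene in TMM-scaled CPM (vertical axes from 0) in the 3 TNFR2-positive (blue) and 3 TNFR2-deficient (orange) libraries, with the group mean ± SD in black. Sh2d1a lies between 63.1 and 65.2 CPM in the TNFR2-deficient libraries and between 8.14 and 11.9 CPM in the others, whereas the points of Slamf6 overlap.

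**Figure D2:**
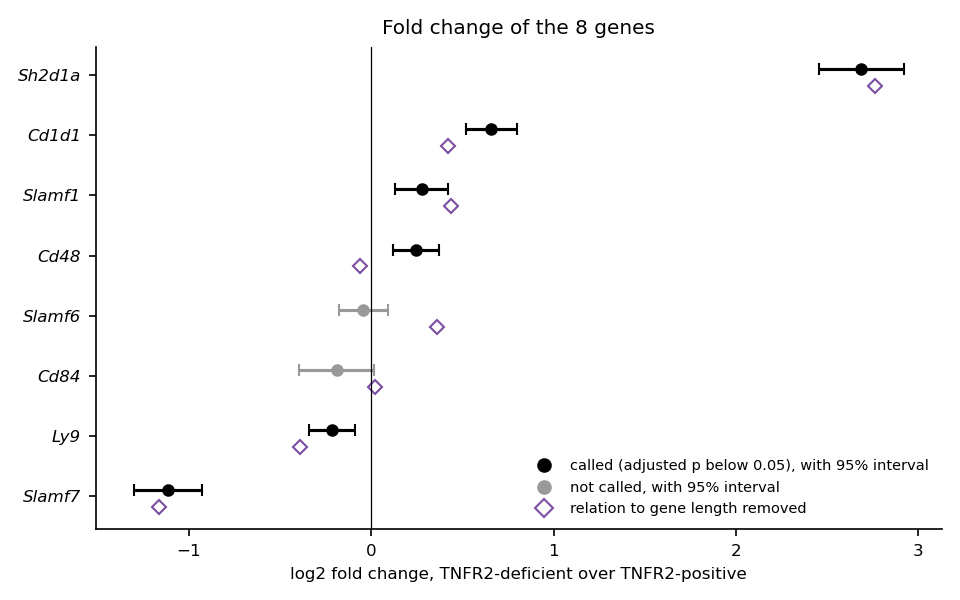
Log2 fold change of the 8 genes, TNFR2-deficient over TNFR2-positive, as circles with 95% intervals (black, called; grey, not called), and, as open diamonds, the value once each library's relation of counts to gene length was removed. Sh2d1a stands at 2.69 and Slamf7 at -1.12, while Cd48 and Cd84 cross 0 and Slamf6 moves to 0.36 with length removed.

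The adaptor showed the greatest difference of the 8. Sh2d1a (ENSMUSG00000005696, chromosome X) encodes SAP and is expressed by T cells and NK cells. Its level was 63.1, 65.2 and 64.0 CPM in TNFR2-deficient libraries 1 to 3 and 8.14, 9.82 and 11.9 CPM in TNFR2-positive libraries 1 to 3. Every TNFR2-deficient library was thus far above every TNFR2-positive one, and the former varied little. The gene was 6.44-fold higher (95% interval 5.49 to 7.57; log2FC = 2.69, SE 0.106, edgeR adjusted p = 2.04e-09), a larger absolute log2FC than that of 94.8% of the tested genes. The counts behind it were 1445 to 1539 and 190 to 255 reads per library. The annotation places 1465 exonic bases of Sh2d1a opposite exons of Tenm1, a neuronal gene, and since the strand setting of the counting is not given, reads there cannot be assigned to a strand. Tenm1 itself held 18 counts over all 6 libraries.

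General T cell markers moved in the same direction and by less. The summed level of 10 of them, a list added after values had been seen, was 1763 to 1854 CPM in the TNFR2-deficient and 907.3 to 932.0 CPM in the TNFR2-positive libraries, with 7 of the 10 called higher and 1 lower. As a share of that sum, Sh2d1a stood at 3.56% ± 0.0345 (SD, n = 3) against 1.08% ± 0.192, a ratio of 3.29. Against single T cell genes, Sh2d1a was at 0.372 ± 0.0103 of the level of Cd3e, a signalling chain of the T cell receptor complex, in the TNFR2-deficient libraries and at 0.109 ± 0.0197 in the others. Set against Trac, the constant region of the receptor's alpha chain, it was at 0.307 ± 0.000840 and 0.0708 ± 0.0144. These ratios are given as a description and were not tested; an exact permutation test of 3 libraries against 3 cannot go below a p of 0.10.

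Markers of double-positive thymocytes, which express SAP, were higher too. Of 12 listed, 11 were called higher and 0 lower, and their sum was 4264 to 4413 CPM against 902.6 to 935.2 CPM, a ratio of 4.74. Rag1, the recombinase subunit that defines rearranging lymphocytes, was at 834.2 to 965.8 CPM against 3.22 to 3.37 CPM. Its partner Rag2 was at 57.3 to 59.3 CPM against 0, 0.205 and 0.374 CPM in TNFR2-positive libraries 1 to 3. Markers of cells that depend on SAP or carry much of it in the periphery were also listed. Of 10 markers of NKT and other innate-like T cells, 7 were lower and 1 higher, with Zbtb16, the factor PLZF that defines NKT cells, at 0.125 to 0.451 CPM against 0.767 to 1.20 CPM. All 6 NK cell markers were lower, summing to 50.3 to 51.4 CPM against 127.2 to 132.6 CPM. Of 6 follicular helper markers tested, 3 were higher and 3 lower. The part of these cell types in the level of Sh2d1a was not tested.

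**Figure D3:**
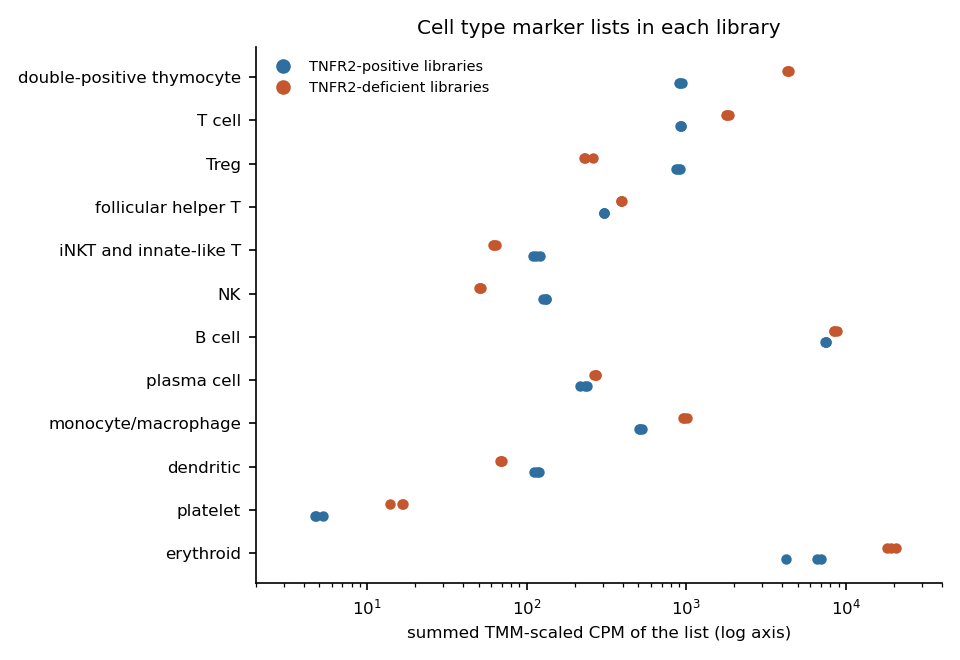
Summed TMM-scaled CPM of each marker list (horizontal log axis) in the 3 TNFR2-positive (blue) and 3 TNFR2-deficient (orange) libraries. Double-positive thymocyte markers sum to between 4264 and 4413 CPM where TNFR2 was deficient and to between 902.6 and 935.2 CPM where it was present, and B cell markers are at 7440 CPM or more in all 6.

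Cd1d1 (ENSMUSG00000028076, chromosome 3) encodes CD1d, which presents lipids to NKT cells and is abundant on double-positive thymocytes and marginal zone B cells. It was at 108.5, 98.1 and 101.1 CPM in TNFR2-deficient libraries 1 to 3 and at 62.2, 65.4 and 67.5 CPM in TNFR2-positive libraries 1 to 3, without overlap. It was 1.58-fold higher (95% interval 1.43 to 1.74; log2FC = 0.66, SE 0.0634, edgeR adjusted p = 3.07e-06), and the log2FC was 0.42 with the relation to gene length removed. Its near-identical neighbour Cd1d2 had 3.72% to 6.66% of the level of Cd1d1, and because the copies can share reads, both values carry that uncertainty. Cd1d2 was called higher too, at 6.30 ± 0.487 against 2.58 ± 0.252 CPM (SD, n = 3; log2FC = 1.29). In the same libraries Rag1 and the other thymocyte markers stood as given above, and B cell markers as a sum were 1.14 times as high, with 4 of 10 called higher and 3 lower. Relative to that sum Cd1d1 stood at 1.20% ± 0.0848 against 0.869% ± 0.0401. Their part in the level of Cd1d1 was not tested.

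The 6 receptors form a cluster on chromosome 1, where the RefSeq order of the genes, leaving out non-coding ones, is Cd244a, Ly9, Slamf7, Cd48, Tma7-ps, Slamf1, Cd84 and Slamf6. The genes of this row did not all move alike. In the main fit Cd244a, Ly9 and Slamf7 at one end fell, and Cd48, Tma7-ps and Slamf1 in the middle rose. Cd84 and Slamf6 at the other end were not called. With gene length removed, Cd48 (log2FC = -0.06) was no longer called and Slamf6 (log2FC = 0.36) was called higher. Slamf7 and Cd48 are read in opposite directions, away from each other. Their promoters are shown because these adjacent genes moved in opposite directions in the main fit. The promoter of Slamf6 is shown because an antisense transcript crosses it. Each window runs from 250 bases before to 50 after the start, in the RefSeq annotation of GRCm38.p6, an older build than the GRCm39 named for the counts. The windows are chr1:171648950-171649249 on the minus strand for Slamf7, chr1:171681742-171682041 on the plus strand for Cd48 and chr1:171917212-171917511 on the plus strand for Slamf6. Capitals mark matches, on either strand, to the E-protein motif CAGGTG, the Runx motif TGTGGT, the ETS motif GGAAGT or an interferon-regulatory factor motif (GAAA, any 2 bases, GAAA).
Slamf7: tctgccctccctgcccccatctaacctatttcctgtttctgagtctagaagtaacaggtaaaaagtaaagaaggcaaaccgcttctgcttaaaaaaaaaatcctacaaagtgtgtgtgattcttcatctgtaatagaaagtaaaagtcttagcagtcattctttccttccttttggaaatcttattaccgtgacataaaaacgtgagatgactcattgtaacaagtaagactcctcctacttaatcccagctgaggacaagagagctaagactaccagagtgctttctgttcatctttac
Cd48: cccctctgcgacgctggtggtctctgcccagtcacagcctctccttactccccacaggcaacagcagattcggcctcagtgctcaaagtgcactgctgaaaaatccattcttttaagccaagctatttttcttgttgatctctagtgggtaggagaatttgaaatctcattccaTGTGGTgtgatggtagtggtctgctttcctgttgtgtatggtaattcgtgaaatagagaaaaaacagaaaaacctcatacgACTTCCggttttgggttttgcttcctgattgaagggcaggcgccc
Slamf6: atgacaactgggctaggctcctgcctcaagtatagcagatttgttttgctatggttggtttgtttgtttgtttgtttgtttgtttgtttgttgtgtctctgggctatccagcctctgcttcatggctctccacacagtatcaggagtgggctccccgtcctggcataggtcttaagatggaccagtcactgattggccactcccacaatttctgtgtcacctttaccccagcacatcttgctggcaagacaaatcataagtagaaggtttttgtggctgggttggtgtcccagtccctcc

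RefSeq promoters were matched for 5 of the 8 genes, and not for Ly9, Sh2d1a and Cd1d1. The Cd48 window held 1 Runx match, which began 76 bases before the start, and 1 ETS match, and these did not overlap. No match to the 4 motifs was found in the Slamf7 and Slamf6 windows, which says only that these letters are not there. Of 32851 promoter windows of this length, 20.2% held the E-protein motif, 16.8% the Runx motif, 23.8% the ETS motif and 3.44% the interferon-regulatory factor motif. The share of G and C was 39.0% in the Slamf7 window, 47.3% in that of Cd48 and 48.3% in that of Slamf6.

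Slamf7 (ENSMUSG00000038179) encodes CRACC, a receptor of NK cells, plasma cells and activated lymphocytes that signals through the SAP relative EAT-2. It was the lowest of the 8 in fold. Its level was 25.3, 23.7 and 25.2 CPM in TNFR2-deficient libraries 1 to 3 and 60.7, 49.7 and 50.3 CPM in TNFR2-positive libraries 1 to 3. Each TNFR2-deficient library was below each TNFR2-positive one, and TNFR2-positive library 1 was the highest. The gene was 2.17-fold lower (95% interval 1.91 to 2.46; log2FC = -1.12, SE 0.0846, edgeR adjusted p = 4.71e-07). In the same libraries the NK markers were lower as given above, with Ncr1, the receptor NKp46 that defines NK cells, at 2.93 to 3.89 CPM against 13.3 to 14.6 CPM. Plasma cell markers did not fall together: of 5 tested, 2 were higher and 1 lower, and their sum was 264.7 to 270.6 CPM against 215.9 to 237.9 CPM. Of 8 dendritic cell markers 6 were lower and 1 higher, and of 10 monocyte and macrophage markers 8 were higher and 0 lower. The part of these cells in the level of Slamf7 was not tested. A gene model opposite Slamf7, Gm37787, shares 423 exonic bases with it and held 44 counts in all, against 5181 for Slamf7.

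Cd48 (ENSMUSG00000015355) encodes a membrane-anchored SLAM protein without a cytoplasmic tail, the ligand of CD2 and CD244, found on nearly all leukocytes. It was at 167.4, 177.6 and 168.6 CPM in TNFR2-deficient libraries 1 to 3 and at 143.4, 140.9 and 148.6 CPM in TNFR2-positive libraries 1 to 3, without overlap. The difference was 1.19-fold (95% interval 1.09 to 1.29; log2FC = 0.25, SE 0.0574, edgeR adjusted p = 0.00232). Longer genes were lower in the TNFR2-deficient libraries across all genes (Spearman's rho = -0.30 between log2FC and exonic length; genes are not independent replicates). With that relation removed from each library, the log2FC of Cd48 was -0.06 and its call was lost (edgeR adjusted p = 0.285), so the direction of this small difference depended on that setting. The ratio of Cd48 to its neighbour Slamf7 within a library was 6.60, 7.50 and 6.69 in TNFR2-deficient libraries 1 to 3. In TNFR2-positive libraries 1 to 3 it was 2.36, 2.83 and 2.95. Cd48 was higher and Slamf7 lower in every TNFR2-deficient library, so the lack of overlap in this ratio follows and is no separate result.

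Slamf1 (ENSMUSG00000015316) encodes the founding member of the family, a self-binding receptor of T cells, B cells and dendritic cells. Its level was 54.2, 52.8 and 50.9 CPM against 46.3, 41.0 and 43.0 CPM in libraries 1 to 3 of each group. The TNFR2-deficient libraries were all higher, by 1.21-fold (95% interval 1.10 to 1.34; log2FC = 0.28, SE 0.0658, edgeR adjusted p = 0.00265). With length removed the log2FC was 0.44.

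Ly9 (ENSMUSG00000004707) encodes CD229, a self-binding receptor of T and B cells. It was at 165.5, 169.6 and 164.8 CPM in TNFR2-deficient libraries 1 to 3 and at 201.0, 183.8 and 195.1 CPM in TNFR2-positive libraries 1 to 3. The groups did not overlap, and the gene was 1.16-fold lower (95% interval 1.06 to 1.27; log2FC = -0.21, SE 0.0583, edgeR adjusted p = 0.00610). With length removed the log2FC was -0.39. As a share of the summed B cell markers, Ly9 was at 1.95% ± 0.0163 against 2.58% ± 0.116. That sum was 1.14 times as high in the TNFR2-deficient libraries, which lowers every such share there. The uncalled Slamf6 and Cd84 did not overlap on this measure either. For Ly9 and Cd84, whose levels were already lower without overlap, this follows from the higher sum and is no separate result. How many of all genes do not overlap on this measure was not counted. Slamf6 was at 2.24% to 2.26% against 2.54% to 2.80%, and Cd84 at 1.40% to 1.54% against 1.74% to 2.28%. On the same measure the groups overlapped for both receptors that rose, with Slamf1 at 0.601% to 0.642% against 0.547% to 0.616% and Cd48 at 1.98% to 2.02% against 1.88% to 2.00%.

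Cd84 (ENSMUSG00000038147) encodes a self-binding receptor of B cells, follicular helper T cells, myeloid cells and platelets. Its level was 129.9, 123.2 and 127.8 CPM in TNFR2-deficient libraries 1 to 3 and 171.2, 130.6 and 132.6 CPM in TNFR2-positive libraries 1 to 3. The groups were separated by less than 1 CPM, and the higher TNFR2-positive mean came mostly from library 1. The difference was not called (log2FC = -0.19, 95% interval -0.39 to 0.01, edgeR adjusted p = 0.0893), and without TNFR2-positive library 1 the log2FC was -0.05 (adjusted p = 0.326). It was called without TNFR2-positive library 2 or 3 (adjusted p = 0.0395 and 0.0428) and with DESeq2 (adjusted p = 0.0431). Platelet markers, of which 4 of 4 tested were called higher, summed to 14.0 to 16.8 CPM against 4.71 to 5.29 CPM, and their part in Cd84 was not tested.

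Slamf6 (ENSMUSG00000015314) encodes Ly108, a self-binding receptor of T, B and NK cells that supports NKT cell selection in the thymus. Its level was 190.8, 199.0 and 189.4 CPM in TNFR2-deficient libraries 1 to 3 and 210.6, 190.5 and 195.3 CPM in TNFR2-positive libraries 1 to 3. These ranges overlapped, and no difference was called (log2FC = -0.04, 95% interval -0.17 to 0.09, edgeR adjusted p = 0.548). With the relation to gene length removed, Slamf6, which has the longest exon model of the 8 at 10.8 kb, was called higher (log2FC = 0.36, edgeR adjusted p = 1.42e-05).

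The antisense gene beside it, chosen after its values were seen, differed between the groups. Gm37065 (ENSMUSG00000104413) is annotated on the minus strand, and its span covers the whole Slamf6 promoter window printed above and 1842 bases of the Slamf6 gene, with no exon of its own in the window and no exonic base shared with Slamf6. It was at 17.2, 20.9 and 19.6 CPM in TNFR2-deficient libraries 1 to 3 and at 2.23, 2.40 and 1.50 CPM in TNFR2-positive libraries 1 to 3. That is 9.40-fold higher (95% interval 7.45 to 11.9; log2FC = 3.23, SE 0.154, edgeR adjusted p = 9.7e-09), and the log2FC stayed between 2.88 and 3.35 over the alternatives. Since the strand setting is not given, reads from unspliced Slamf6 RNA cannot be told from those of Gm37065 where the spans cross.

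Levels per kilobase of exon model allow the genes to be set in order. In the TNFR2-deficient libraries the order was Cd48 (144.0 ± 4.70 CPM per kb, SD, n = 3), Ly9 (50.4 ± 0.782), Cd1d1 (39.9 ± 2.08), Cd84 (20.2 ± 0.548), Slamf6 (17.8 ± 0.478), Sh2d1a (11.6 ± 0.189), Slamf1 (8.55 ± 0.269) and Slamf7 (5.41 ± 0.200), and no neighbours overlapped. In the TNFR2-positive libraries it was Cd48 (121.4 ± 3.28 CPM per kb), Ly9 (58.4 ± 2.64), Cd1d1 (25.3 ± 1.04), Cd84 (23.1 ± 3.65), Slamf6 (18.4 ± 0.968), Slamf7 (11.7 ± 1.35), Slamf1 (7.05 ± 0.439) and Sh2d1a (1.81 ± 0.346), where only the ranges of Cd1d1 and Cd84 overlapped among neighbours. Sh2d1a was thus the last of the 8 in the TNFR2-positive libraries and the sixth in the others, and Slamf7 was the sixth and the last. Cd48 was the most abundant receptor per kilobase in both groups, with 58.4% ± 0.690 and 50.6% ± 1.87 of the receptors' summed level per kilobase. The exon models join all annotated isoforms, which lengthens the model and lowers the level per kilobase of genes with long rare isoforms.

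The other members of the family and the SAP relatives were low except for Cd2. Of 6 listed genes 5 were tested, of which 1 rose and 1 fell (median log2FC = -0.03), beside 35.1% higher and 34.2% lower over all genes. Cd244a, the receptor 2B4 of NK cells and ligand partner of CD48, fell from 16.0 ± 3.04 to 6.55 ± 1.72 CPM (log2FC = -1.29, edgeR adjusted p = 4.69e-05). Sh2d1b1, which encodes EAT-2, rose from 3.97 ± 0.807 to 8.89 ± 0.695 CPM (log2FC = 1.15, edgeR adjusted p = 3.31e-05), although its close copy Sh2d1b2 can share reads. Cd2, the T cell adhesion receptor for CD48, was at 221.5 ± 16.7 against 222.5 ± 11.3 CPM and was not called (log2FC = -0.01), but was called lower with length removed (log2FC = -0.36). Slamf8 and Slamf9, receptors of myeloid cells, were at 2.29 to 5.34 CPM in every library and were not called.

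**Figure D4:**
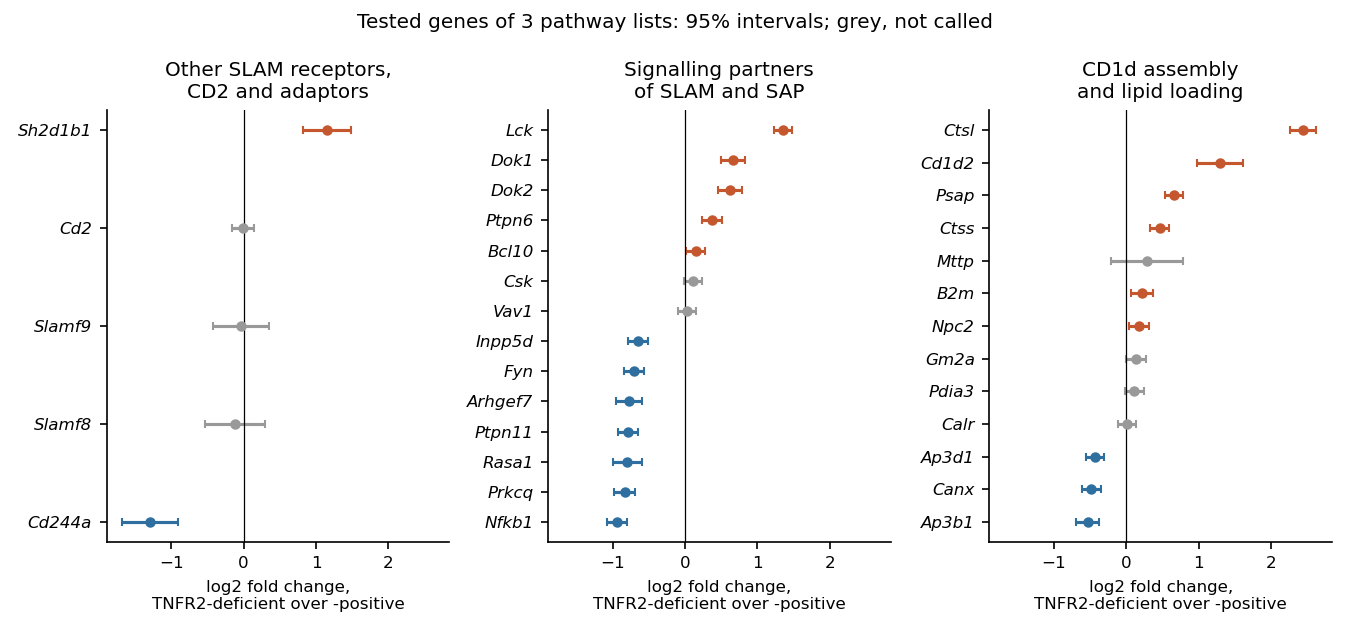
Log2 fold change, TNFR2-deficient over TNFR2-positive, of each tested gene of 3 lists around the 8 genes, with 95% intervals (orange, called higher; blue, called lower; grey, not called). In the signalling list Lck stands at 1.36 and Nfkb1 at -0.94, and in the CD1d list Ctsl stands at 2.44.

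Of 14 tested signalling partners of SLAM and SAP, 5 rose and 7 fell (median log2FC = -0.31), which is read beside the 35.1% and 34.2% of all genes called in these directions. Fyn, the kinase that SAP recruits, fell from 163.8 ± 2.37 to 100.4 ± 6.04 CPM (log2FC = -0.71, edgeR adjusted p = 1.5e-06), the opposite direction to Sh2d1a. Lck, the coreceptor-bound kinase of the same family, rose from 194.9 ± 6.54 to 498.8 ± 9.10 CPM (log2FC = 1.36, edgeR adjusted p = 3.38e-09). Downstream of SAP and Fyn, Prkcq, the kinase PKC-theta, and Nfkb1, the NF-kB subunit p50, had log2FC of -0.83 and -0.94 and were called lower (adjusted p = 5.25e-07 and 1.73e-07), and Bcl10, which links them, was 1.11-fold higher (adjusted p = 0.0415), a call that 9 of the 15 alternatives lost. The phosphatases that bind the tyrosine motifs in competition with SAP were split. Ptpn6, which encodes SHP-1, rose by 0.37, and Ptpn11 and Inpp5d, which encode SHP-2 and SHIP-1, fell by 0.79 and 0.65 on the log2 scale. The adaptors Dok1 and Dok2 rose by 0.66 and 0.62, whereas Rasa1, the Ras GTPase-activating protein, and Arhgef7, an exchange factor that binds SAP, fell by 0.80 and 0.77. The Arhgef7 call was lost with length removed (log2FC = -0.16, adjusted p = 0.0549). Vav1 and Csk were at log2FC of 0.03 and 0.11 and were not called.

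Of 13 tested genes of CD1d assembly and lipid loading, Cd1d2 included, 6 rose and 3 fell (median log2FC = 0.18), beside 35.1% higher and 34.2% lower over all genes. The count called higher ran from 4, without TNFR2-deficient library 1 or without library 2, to 8 with upper-quartile scaling, with 3 called lower in each. With length removed 5 were called higher and 4 lower, Calr (log2FC = -0.25) among the latter. Mttp, Gm2a, Pdia3 and Calr were not called in the main fit (log2FC = 0.28, 0.14, 0.11 and 0.01). Ctsl, the protease cathepsin L, which thymic antigen presentation on CD1d requires, rose from 13.5 ± 1.13 to 73.2 ± 5.28 CPM (log2FC = 2.44, edgeR adjusted p = 6.23e-10). Psap, the precursor of the saposins that load lipids onto CD1d, rose from 833.5 ± 24.5 to 1319 ± 37.3 CPM (log2FC = 0.66, edgeR adjusted p = 1.22e-06), and Ctss, the protease cathepsin S, rose by 1.38-fold. B2m, the light chain that pairs with CD1d and class I molecules, was 1.16-fold higher (adjusted p = 0.0132), but with length removed it was called lower (log2FC = -0.22), and the call was lost without TNFR2-deficient library 1 (adjusted p = 0.0608) or library 2 (adjusted p = 0.0852). Npc2, a lipid carrier, was 1.13-fold higher (adjusted p = 0.0287), and 7 of the 15 alternatives lost that call. Ap3b1 and Ap3d1, subunits of the AP-3 complex that sorts CD1d to lysosomes, fell by 0.53 and 0.43, and the chaperone Canx fell by 0.48 on the log2 scale. The Ap3d1 call was lost with length removed (log2FC = -0.11, adjusted p = 0.0875). Macrophages also express Ctsl, Ctss and Psap. In the same libraries the 10 monocyte and macrophage markers summed to 951.3 to 1014 CPM against 506.0 to 528.0 CPM, a ratio of 1.90. The log2FC of the 10 markers ran from -0.19 to 2.70, with a median of 1.19. C1qa, a complement subunit, was near the top of that range (log2FC = 2.56), at 105.7 to 113.4 CPM against 16.8 to 19.7 CPM. The part of macrophages in these levels was not tested.

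The genes most like Sh2d1a and Slamf7 over the 6 libraries were sought among 9537 named protein-coding genes with a mean of at least 5 CPM, by the root mean square difference of log2(CPM + 0.1) centred on each gene's mean. For Sh2d1a they were Aldh1a1 (0.0999), C1qa (0.133) and Klc3 (0.143), with log2FC of 2.65, 2.56 and 2.66. For Slamf7 they were Xpo4 (0.0170), Malt1 (0.0281) and Arid4a (0.0292), with log2FC of -1.13, -1.12 and -1.16. The genes were picked for their likeness over these same libraries. Their like log2FC, and the peak in TNFR2-positive library 1 shared with Slamf7, follow from that choice and are no separate result. Malt1, for example, was at 425.6 CPM there against 366.6 and 361.2 CPM in libraries 2 and 3.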

How the data were processed

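The authors deposited raw counts of reads per Ensembl gene for 6 libraries (3 per group), made from poly(A)-selected RNA per the labels' protocols, with no molecular identifiers described. HISAT2 2.1.0 and build GRCm39 are named in the submitters' processing notes. Not given in the sources used here are the counting program, its strand setting, its annotation and how reads that aligned to several places were counted. Symbols were matched for 30529 of 32377 identifiers. Exon lengths came from GENCODE M21, on an older build than the counts. Its coordinates gave the exonic bases shared between genes and the span of Gm37065. Promoters came from RefSeq.

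After filterByExpr and TMM scaling, counts went into glmQLFTest of edgeR 4.0.16 (R 4.3.3), with p adjusted by Benjamini-Hochberg over 17022 genes. Levels are TMM-scaled CPM. Intervals of log2FC are at 95%, from the quasi-likelihood standard error. The fit was tested on simulated data in which few genes were changed, by known folds. It recovered 9 of 46 genes at 1.19-fold, 30 of 50 at 1.41-fold, 42 of 50 at 2-fold and 49 of 49 at 4-fold. It made 7 false calls. Many more genes were called in the real data, so these shares need not hold there.

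The 8 genes, the lists and the tests were chosen with earlier results of these data known. All 8 are reported in full. From pathway lists any tested gene could be named, and from each marker list the sum and its first 2 genes. The T cell marker list and Gm37065 were added after values had been seen. Genes of like pattern are the 3 nearest to Sh2d1a and to Slamf7, the genes of highest and lowest log2FC. Alternatives were DESeq2 1.42.0, limma-voom (limma 3.58.1), other scalings and filters, the replicate number as a block, offsets from splines (4 degrees of freedom) that take out the dependence of each library on exon and intron length, and leaving out each library.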

Additional observations from a re-analysis of the deposited data

How the results depend on the processing

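Over 15 alternatives, 112 of 120 values of the 8 genes kept their direction and their side of the threshold. Slamf6, not called, had a log2FC of 0.0078 with upper-quartile scaling and 0.36 with gene length removed. With length removed Cd84 was at 0.023 and Cd48 at -0.061, and the causes were not tested. Cd84 was called with DESeq2 (log2FC = -0.22, adjusted p = 0.0431) and with the replicate block (log2FC = -0.18, adjusted p = 0.0403). Leaving out 1 library at a time gave log2FC of 2.55 to 2.84 for Sh2d1a, 0.61 to 0.69 for Cd1d1, 0.23 to 0.32 for Slamf1, 0.21 to 0.27 for Cd48, -0.07 to -0.0025 for Slamf6, -0.26 to -0.055 for Cd84, -0.25 to -0.19 for Ly9 and -1.17 to -1.02 for Slamf7. Of the other family members, 2 in place of 1 were called lower with length removed, Cd2 being the second. No pairing by replicate number was seen: deviations of same-numbered libraries from their group means correlated at 0.04, 0.05 and -0.06. This check cannot exclude a shared animal or day, which the labels do not give. The block called 11856 genes in place of 11802, with no other call among the 8 changed. No alternative moved the median of all genes by over 0.1. Slamf9, at 2.29 to 2.85 CPM, had a log2FC SE of 0.178, against 0.0574 for Cd48 and 0.0936 for Cd84, whose levels were far higher. What set the size of the error was not tested.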
